A study of Mus musculus with 10 samples.

Results

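Dcx, Mapk8, Fmn2 and Dzip1 are genes with microtubule, kinase, actin and cilium functions in young neurons and their progenitors. They were taken from the authors' deposited list of probe sets that differ between mutant and wildtype medial ganglionic eminence (MGE), as every probe set with one of these 4 symbols. Each symbol had 1 probe set in that list, so the members are 4 of 96 listed probe sets, on an array of 45101. Any other probe sets of these 4 genes on the array could not be named and were not read. What is said of a gene below therefore rests on its listed probe set alone. The mutant pools were Evf2TS/TS (replicates 1 to 5), in which the long non-coding RNA Evf2 is not expressed, and the wildtype pools were Evf2+/+ (replicates 1 to 5). All 10 pools came from E13.5 embryos, the embryonic day given in the labels, on a mixed 129Sv, Bl6 and Fvbn background. Each pool held 4 eminences from 2 brains, so no value belongs to a single embryo. Males made up 3 mutant and 2 wildtype pools, females 2 mutant and 3 wildtype pools.

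The MGE is the ventral forebrain zone where many cortical interneurons are born before they migrate tangentially to the cortex. A newborn neuron moves by extending a leading process and pulling its nucleus forward, which needs a stabilised microtubule network and a dynamic actin network. Dcx (doublecortin) binds and stabilises microtubules in migrating neurons and is widely used as a marker of them. Mapk8 encodes JNK1, a c-Jun N-terminal kinase whose substrates in neurons include microtubule-associated proteins, doublecortin among them. Fmn2 is a formin, a protein that nucleates straight actin filaments. Dzip1 is a zinc finger protein of the ciliary base that takes part in cilium formation and hedgehog signalling, on which ventral progenitors depend.

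Values are linear signals, 1 per probe set and array, and the precision is limited by the 10 arrays. The label check held for the targeted RNA: the Evf2 probe set read 9.47 to 58.1 in mutant pools, against 453 to 901 in wildtype pools. Over 45037 probe sets that are not controls, limma called 241 (0.535%) at an adjusted p under 0.05, 136 higher and 105 lower in the mutant, while centring each array on its median gave 95 higher and 148 lower. The 4 genes were chosen from a list of this same contrast, so their mutant-to-wildtype differences are described without a test. Of the 9 MGE markers looked for, only Dlx6 had a named probe set, of the 5 young neuron markers only Dcx, and none of the 23 markers chosen for radial glia, pallium, endothelium, blood, microglia and meninges had one. Dlx6, a homeobox gene of the ventral forebrain, read 737 ± 186 in mutant and 316 ± 36.4 in wildtype pools, without overlap. Vwf (von Willebrand factor), an endothelial gene outside those lists that was picked out after its values were seen, read 54.5 ± 7.52 in mutant and 23.1 ± 8.80 in wildtype pools (SD, n = 5 each for both). Only probe sets that the authors had found to differ by genotype carried symbols, so any marker with a symbol had to differ. A marker without one may or may not have changed. Dlx6 is the neighbour of Evf2 at its locus, and Vwf lies on the same chromosome, so neither is a marker independent of the targeted locus. Whether they differed through cell makeup, through the loss of Evf2 within cells or in another way was not tested. The part of a difference in cell makeup in the values of the 4 genes was not tested either. In bulk tissue, fewer young neurons and less RNA per neuron cannot be told apart.

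The stretches before the transcription starts of Dcx and Mapk8 are shown because both genes were lower in mutant pools and their promoters differ. Dzip1 was also lower in mutant pools, but its stretches are not shown. Each is the 250 bases before the outermost RefSeq start in GRCm38.p6, on the minus strand, and capitals mark TAATTA, the core bound by many homeodomain proteins, DLX proteins among them.
Dcx, chrX:143933220-143933469: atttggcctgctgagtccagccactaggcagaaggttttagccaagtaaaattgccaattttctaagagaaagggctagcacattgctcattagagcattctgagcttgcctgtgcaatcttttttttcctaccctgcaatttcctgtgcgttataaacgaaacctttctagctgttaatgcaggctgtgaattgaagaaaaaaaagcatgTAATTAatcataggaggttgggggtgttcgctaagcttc
Mapk8, chr14:33447159-33447408: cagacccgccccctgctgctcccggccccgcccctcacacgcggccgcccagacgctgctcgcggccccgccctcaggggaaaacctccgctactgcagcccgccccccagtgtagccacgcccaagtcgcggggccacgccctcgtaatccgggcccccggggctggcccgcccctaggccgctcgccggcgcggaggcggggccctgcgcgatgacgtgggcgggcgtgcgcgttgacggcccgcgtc
The Dcx stretch held 1 TAATTA, 39 bases before the start. A second RefSeq start of Dcx has an overlapping window that holds the same match, 134 bases before that start. The 2 windows of Mapk8, the 3 of Dzip1 and the 1 of Fmn2 held none, and Mapk8 and Dzip1 were lower in mutant pools too. All but the outermost windows of Mapk8 and Dzip1 lie downstream of the outermost start, so they need not be promoters. TAATTA reads the same on both strands and was found in 4.84% of 32851 such windows. TGANTCA, the site of AP-1 factors that JNK acts on, also reads the same on both strands; it occurred in none of the 8 windows of the 4 genes and in 6.75% of all windows. Base composition set both stretches apart: G and C made up 41.6% of the Dcx bases with 3 CpG, against 79.2% of the Mapk8 bases with 36 CpG, where the median window had 52.4% and 6 CpG. The motifs were picked after the sequences had been seen, and a match in letters shows no binding.

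Dcx was lower in mutant MGE. Its probe set read 340.1, 298, 295, 569.6 and 163 signal units in mutant replicates 1 to 5, against 999, 1454, 1157, 956 and 567 in wildtype replicates 1 to 5. Mutant replicate 4 stood just above wildtype replicate 5, so the groups overlapped by that 1 pair of pools, and the 4 other mutant pools were all under the wildtype range. The means were 333 ± 148 in mutant and 1027 ± 323 in wildtype pools (SD, n = 5 each), a log2 difference of -1.54 ± 0.29 (SE) on the log2(signal + 16) scale used throughout. Mutant replicate 5, with the lowest Dcx of all arrays, also had the highest ratio of 3′ to 5′ signal for the beta-actin controls (1.41, against 1.257 to 1.38 in the other 9 pools) and for the Gapdh controls (0.868, against 0.822 to 0.862). The part of RNA quality in that low value was not tested; without this pool the Dcx difference was -1.38. The probe set aligned to chromosome X at 140290384 to 140367854 on the minus strand, in a build the deposited table does not name, a span of 77471 bases.

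Mapk8 was lower in every mutant pool than in any wildtype pool. Its probe set read 57.8, 55.9, 71.1, 75.8 and 59.9 in mutant replicates 1 to 5, against 163, 308, 359, 243 and 137 in wildtype replicates 1 to 5. The mutant pools were tightly packed, while the highest wildtype pool read over 2 times the lowest. The means were 64.1 ± 8.81 in mutant and 242 ± 93.8 in wildtype pools (SD, n = 5 each), a log2 difference of -1.59 ± 0.23 (SE). The listed alignment is short, 634 bases on chromosome 14 from 34192351 to 34192984 on the minus strand in the unnamed build, so the value covers 1 stretch of this kinase transcript.

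Dzip1 was lower in every mutant pool than in any wildtype pool, and its mutant pools were uneven. Its probe set read 3.34, 3.15, 5.00, 59.9 and 14.5 in mutant replicates 1 to 5, against 99.1, 128, 97.1, 113 and 95.8 in wildtype replicates 1 to 5. Mutant replicate 4 stood well above the other mutant pools and still below every wildtype pool, so the groups did not overlap. The means were 17.2 ± 24.3 in mutant and 106 ± 13.6 in wildtype pools (SD, n = 5 each), a log2 difference of -2.20 ± 0.31 (SE). In the 4 other mutant pools the signal lay under the array median (23.5 to 29.3 over the 10 arrays) and the size of the difference moved with the added constant, to -3.61 with 1 and -1.14 with 64. The alignment spans 299 bases of chromosome 14, from 119314728 to 119315026 on the minus strand in the unnamed build. It begins 85.1 Mb from that of Mapk8, and no other listed probe set with a single alignment lay on that chromosome.

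Fmn2 was the 1 gene of the 4 that was higher in mutant MGE. Its probe set read 71.5, 45.1, 70.3, 48.3 and 46.9 in mutant replicates 1 to 5, against 12.4, 15.2, 23.0, 21.2 and 16.7 in wildtype replicates 1 to 5. The groups did not overlap. The means were 56.4 ± 13.3 in mutant and 17.7 ± 4.34 in wildtype pools (SD, n = 5 each), a log2 difference of 1.09 ± 0.14 (SE). All 5 wildtype values lay under the median of their array, and the difference likewise moved with the added constant, to 1.61 with 1 and 0.55 with 64. The alignment runs over 87861 bases of chromosome 1, from 176542679 to 176630539 on the plus strand in the unnamed build. Fmn2 was the 1 member with other listed probe sets within 5 Mb, that of Pex19 among them. Pex19, a peroxisome assembly factor, starts 2.48 Mb before it and was higher in the mutant (118 ± 32.1 in mutant and 48.0 ± 4.02 in wildtype pools; SD, n = 5 each).

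Groups that did not overlap were found for 2 members with the mutant lower, Mapk8 and Dzip1, where 1.24% of all probe sets had that pattern, and for 1 with the mutant higher, Fmn2, where 1.83% had it. The choice of members from a list of this contrast nearly fixes these counts. The authors' deposited table holds intensities other than the values used here (Dcx 629 in mutant and 2038 in wildtype). How they were made was not given in the sources used here. That table gave log2 fold changes of -1.74 for Dcx, -2.07 for Mapk8, -3.15 for Dzip1 and 1.25 for Fmn2. By the size of the fold in the authors' deposited table these ranked 43 (Dcx), 30 (Mapk8), 6 (Dzip1) and 68 (Fmn2) of 96. At pseudocount 16 the value table also put Dzip1 farthest from wildtype and Fmn2 nearest, but at pseudocount 64 Dcx (-1.41) and Mapk8 (-1.18) lay farther than Dzip1 (-1.14).

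**Figure D1:**
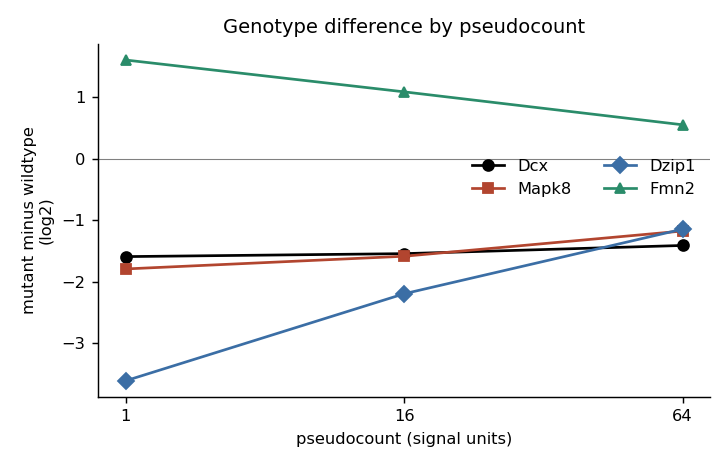
Mutant minus wildtype log2 difference of the 4 genes (y axis) at pseudocounts of 1, 16 and 64 signal units (x axis, unevenly spaced values at even steps). Dcx moves little (-1.59, -1.54 and -1.41) and Mapk8 somewhat (-1.79, -1.59 and -1.18), while Dzip1 runs over -3.61, -2.20 and -1.14 and Fmn2 over 1.61, 1.09 and 0.55.

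**Figure D2:**
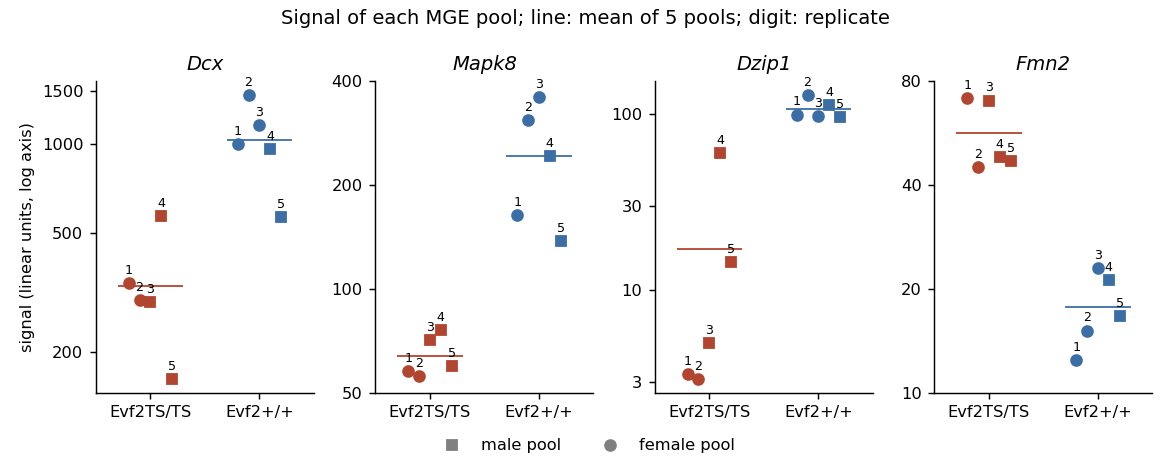
Signal (linear units, log axis) of Dcx, Mapk8, Dzip1 and Fmn2 in each pool, Evf2TS/TS left and Evf2+/+ right, with squares for male pools, circles for female pools, digits for replicates and a line at the mean of 5 pools. Mutant replicate 4 reaches the wildtype range for Dcx (569.6 against 567 in wildtype replicate 5) and comes nearest to it for Dzip1 (59.9), while its Fmn2 signal (48.3) is among the other mutant pools.

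The 4 genes differed in which genotype was uneven. The SD of log2 values was 0.61 in mutant and 0.49 in wildtype pools for Dcx, and 0.26 in mutant and 0.19 in wildtype pools for Fmn2. For Mapk8 the spread lay in the wildtype pools (0.16 in mutant and 0.55 in wildtype pools), and for Dzip1 in the mutant pools (0.84 in mutant and 0.155 in wildtype pools). These spreads were not compared by a test. After genotype and sex were fitted, the residual SD of Dcx (0.55) stood above 98.6% of 2835 probe sets of like brightness, that of Dzip1 (0.59) above 99.3% of 6509 and that of Mapk8 (0.42) above 96.6% of 4765. That of Fmn2 (0.24) was near the middle, above 48.8% of 7430. Like brightness here means a mean within 0.5 log2 units of the gene's own.

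The place of mutant replicate 4 between the genotypes was expressed as its log2 distance from the 4 remaining mutant pools, divided by the distance of the wildtype mean from them, so that 0 is mutant-like and 1 wildtype-like. Dzip1 lay at 0.72 and Dcx at 0.58 on it, while Mapk8 lay at 0.15 and Fmn2 at 0.17. The median of the 96 listed probe sets in this pool was 0.39, against -0.11 to -0.08 in the other mutant pools. Dzip1 and Dcx were thus farther towards wildtype than the list as a whole, and Mapk8 and Fmn2 less far. Evf2 itself was at -0.04 in this pool.

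The sexes were compared because the rule did not use sex. In the fit with genotype and sex, limma called none of the 4 genes for male against female, where 12 of 45037 probe sets (0.0266%) were called, and at an unadjusted p under 0.05 there were also 0 of 4, where 2212 of all probe sets (4.91%) passed. The male minus female log2 difference was -0.37 ± 0.29 for Dcx (limma adjusted p = 0.977), -0.14 ± 0.23 for Mapk8 (0.979), 0.44 ± 0.31 for Dzip1 (0.977) and 0.02 ± 0.14 for Fmn2 (0.996), each with its SE. The standard errors of Dcx and Dzip1 are wide enough that a moderate sex difference could be missed.

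The difference between genotypes had the same direction in both sexes for all 4 genes. For Dcx, mutant minus wildtype was -1.24 ± 0.41 in males and -1.85 ± 0.41 in females, each a log2 difference with its SE. For Mapk8 it was -1.23 ± 0.30 in males and -1.94 ± 0.30 in females, and for Dzip1 -1.72 ± 0.41 in males and -2.68 ± 0.41 in females. For Fmn2 it was 1.01 ± 0.21 in males and 1.17 ± 0.21 in females. The male effect minus the female effect was 0.61 ± 0.58 for Dcx, 0.71 ± 0.43 for Mapk8, 0.96 ± 0.58 for Dzip1 and -0.15 ± 0.30 for Fmn2. All 4 effects were smaller in size in males, and in no gene did the difference pass: limma adjusted p was 0.999 for each, the unadjusted p ran from 0.13 (Dzip1 and Mapk8) to 0.622 (Fmn2), and none was under 0.05. Over all probe sets limma called 0 of 45037 (0%), with 1744 (3.87%) at an unadjusted p under 0.05. Mutant replicate 4, the pool nearest to wildtype for Dcx and Dzip1, is 1 of the 3 male mutant pools. Male mutant pools read 163 to 569.6 for Dcx and 5.00 to 59.9 for Dzip1, and female mutant pools read 298 to 340.1 for Dcx and 3.15 to 3.34 for Dzip1. Without this pool the male effect was -1.68 ± 0.32 for Dcx and -2.24 ± 0.21 for Dzip1, and the male effect minus the female effect was 0.17 ± 0.43 for Dcx and 0.43 ± 0.28 for Dzip1. For Mapk8 it was 0.65 ± 0.47 without this pool, and for Fmn2 -0.09 ± 0.32.

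**Figure D3:**
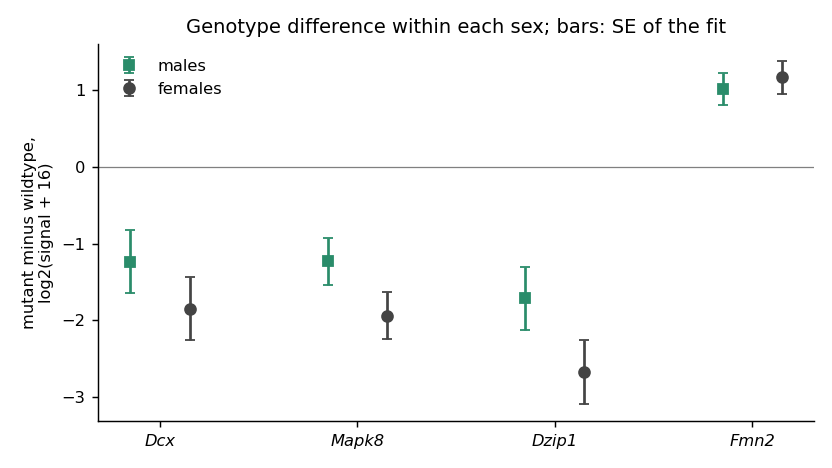
Mutant minus wildtype difference in log2(signal + 16) of each gene in males (squares, left) and females (circles, right), with bars for the SE of the fit. Dcx, Mapk8 and Dzip1 lie below 0 and Fmn2 above 0 in both sexes, and the points for Dzip1 are at -1.72 in males and -2.68 in females. Without mutant replicate 4 the gap between the sexes was 0.43 for Dzip1 and 0.65 for Mapk8.

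Whether Dcx and Mapk8 rise and fall together was asked within genotype, since a correlation over all pools would restate the genotype difference. With 5 pools a genotype, deviations from the genotype mean were pooled over the 10 arrays. Pearson's r was 0.61 (exact permutation test of pairings within genotype, 2-sided p = 0.0233) and Spearman's rho 0.59 (exact p = 0.0652). Neither passed once the 6 pairs among the 4 genes were allowed for (adjusted p = 0.14 for r and 0.287 for rho). Without mutant replicates 4 and 5, the 2 pools farthest from the median on the Dcx axis, r was 0.77. Wildtype replicate 5 was low in both genes and wildtype replicates 2 and 3 were high in both; without wildtype replicate 5, r was 0.40 (exact p = 0.138). The unadjusted p was also over 0.05 without wildtype replicate 2 (r = 0.54, exact p = 0.0684) and without mutant replicate 4 (r = 0.63, exact p = 0.076). Wildtype replicate 1 did not follow, with Dcx 0.02 above and Mapk8 0.44 below its genotype mean. Among mutant pools Dcx ran from -0.86 to 0.85 and Mapk8 only from -0.15 to 0.20.

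**Figure D4:**
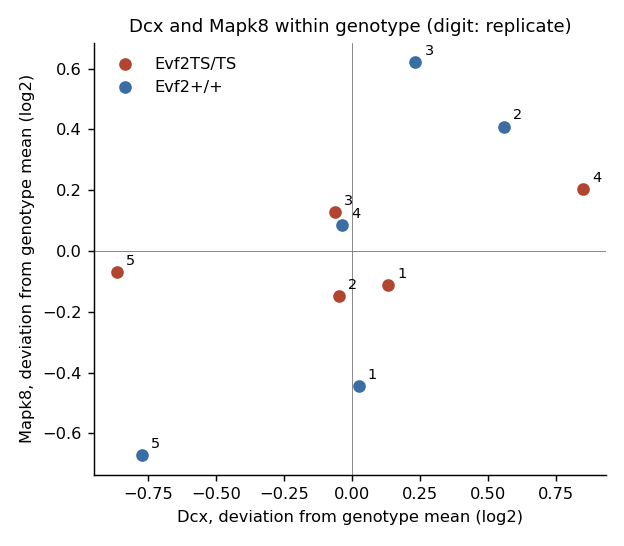
Deviation of each pool from its genotype mean in log2(signal + 16), Dcx on the x axis and Mapk8 on the y axis, Evf2TS/TS in red and Evf2+/+ in blue, with digits for replicates. The mutant pools spread along the Dcx axis (-0.86 to 0.85) at nearly level Mapk8, and wildtype replicate 5 is low in both.

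The other pairs were looser. Dcx with Dzip1 had r = 0.48 (rho 0.39; exact p = 0.313 and 0.324, adjusted 0.469 and 0.489), and r was -0.27 without mutant replicate 4. Mapk8 with Fmn2 had r = 0.35 (rho 0.35; exact p = 0.29 and 0.326), and Mapk8 with Dzip1 r = 0.27 (rho 0.47; exact p = 0.0814 and 0.0956). Fmn2 with Dzip1 had r = -0.37 (rho -0.31; exact p = 0.542 and 0.436), and Fmn2 with Dcx r = 0.07 (rho 0.09; exact p = 0.904 and 0.827). Without the 2 pools farthest on the axis of the gene that comes first in Dcx, Mapk8, Fmn2, Dzip1, r was 0.24 for Dcx with Dzip1, 0.23 for Mapk8 with Fmn2, 0.44 for Mapk8 with Dzip1, -0.08 for Fmn2 with Dzip1 and 0.07 for Fmn2 with Dcx. The smallest adjusted p over these 5 pairs was 0.244. Ranked by r among 45036 other probe sets, Mapk8 stood at 2558 for Dcx, so many unnamed probe sets followed Dcx more closely than Mapk8 did.

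The listed genes most like each of the 4 over the 10 deviations were found among probe sets with a single current symbol. These r are descriptions over 10 arrays that share their scaling and the pools. For Dcx they were Cnpy2 (r = 0.90), Atp7a, a copper transporter of the secretory pathway (0.83), and C1qtnf12 (0.79). They followed Dcx also without mutant replicate 4 (0.85, 0.77 and 0.64). All 3 were lower in the mutant, Atp7a with 80.9 ± 23.8 signal units in mutant and 179 ± 20.9 in wildtype pools (SD, n = 5 each). For Mapk8 the closest were Eme2, an endonuclease subunit (0.70), Dcx itself (0.61) and Vwf (0.60). Eme2 was lower in the mutant (18.6 ± 13.52 in mutant and 83.4 ± 30.8 in wildtype pools; SD, n = 5 each), as Dcx and Mapk8 were, while Vwf was higher. For Fmn2 they were Acaa2, a mitochondrial thiolase (0.58), the transcript AA388235 (0.57) and the protease inhibitor A2m (0.57), none of them close; Acaa2 was higher in the mutant, AA388235 and A2m lower.

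With all pools kept, Dzip1 had the tightest companions of the members, but this rested on mutant replicate 4. Prdx2, a peroxiredoxin, followed it with r = 0.97, the highest of all 45036 other probe sets, then the transcript 4833420G17Rik (0.96, at rank 4) and Galc, a lysosomal galactosidase (0.92, at rank 20). In mutant replicate 4, Dzip1 lay 1.43, Prdx2 1.26, 4833420G17Rik 0.81 and Galc 1.65 log2 units above the mutant mean. Without it r was 0.76 for Prdx2, 0.74 for 4833420G17Rik and -0.003 for Galc. These lay below the r of Cnpy2 with Dcx (0.85) and of Eme2 with Mapk8 (0.83) without the same pool.

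**Figure D5:**
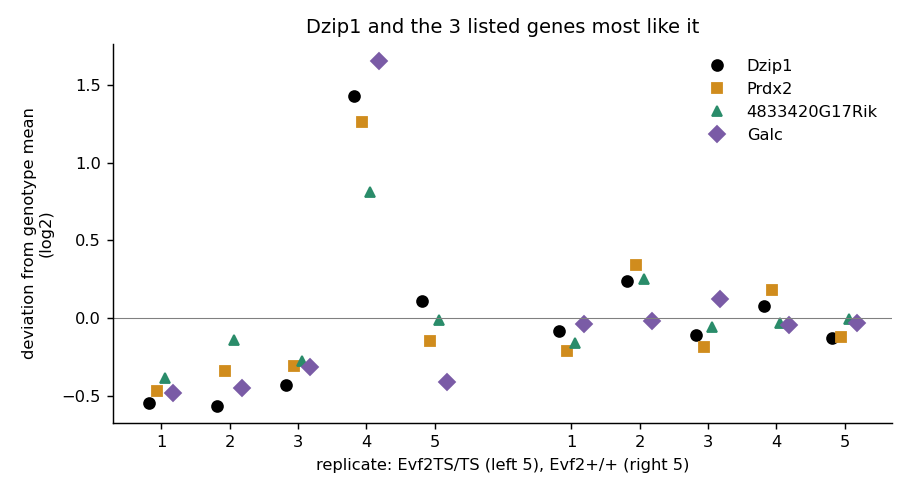
Deviation from the genotype mean in log2(signal + 16) of Dzip1 and of Prdx2, 4833420G17Rik and Galc in each pool, mutant replicates left and wildtype replicates right. Mutant replicate 4 stands apart in all 4 (0.81 to 1.65), and the other pools lie between -0.56 and 0.34.

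Of 19 genes for microtubules and migration in young neurons, 14 of the JNK pathway, 18 of actin nucleation and 18 of the primary cilium and hedgehog signalling, the named member was in each case 1, namely Dcx, Mapk8, Fmn2 and Dzip1. Names came only from the authors' list, so other probe sets of these pathways were tested without names, and nothing is said of them. Of 9 cell cycle genes of progenitors 1 was named, Ccnd2, a D-type cyclin of the G1 phase, which read 2118 ± 292 in mutant and 664 ± 89.7 in wildtype pools (SD, n = 5 each). Ccnd2 lies on the same chromosome as Evf2, and why it differed was not tested.

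By the annotation in the authors' deposited table, listed probe sets besides Dcx and Fmn2 that carried a cytoskeleton or neuron term included those of Cep192, Ermn, Atp7a and Nmnat1. Cep192, a centrosome protein that nucleates microtubules, read 10.6 ± 14.1 in mutant and 34.6 ± 6.74 in wildtype pools, with 35.0 in mutant replicate 4 and 0.958 to 9.81 in the other mutant pools. Ermn (ermin), an actin-binding protein, read 34.9 ± 14.6 in mutant and 72.7 ± 11.5 in wildtype pools. The groups overlapped for both, through mutant replicate 4, which was again the highest mutant pool. Atp7a, given above, was also lower in the mutant. Nmnat1, an enzyme of NAD synthesis, read 70.2 ± 24.3 in mutant and 23.3 ± 4.36 in wildtype pools without overlap (SD, n = 5 each for all).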

How the data were processed

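Each array has 1 linear intensity for every probe set in the deposited value table; how the authors summarised and scaled it was not given in the sources used here. Tested on the values, the mean signal between the 2nd and 98th percentiles was equal on all arrays (149.9 to 150.0). The authors' deposited list gives a ratio (absolute fold), a signed fold as a score, a log2 fold change and an intensity per genotype; per the file headers it was cut at a corrected p-value of 0.05 (unpaired test) and a 2-fold change. Probe sets were named from that list, with symbols updated through RefSeq (63 of 69 single Entrez numbers matched).

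Signals were taken as log2(value + 16) and fitted with limma 3.58.1 (R 4.3.3; genotype and sex, eBayes, Benjamini-Hochberg over 45037 probe sets, 64 controls left out). Pools are the replicates, so p-values rest on their spread. The fit was tested on simulated data. One listed gene is not reported here. Correlations used exact permutation of pairings within genotype (Python 3.11.15, numpy 2.4.6). For each member, the 3 listed genes with the highest r were named, and list members wherever a probe set was named. Genes named for their annotation terms or their distance from Fmn2 were added after their values were seen. The members and lists were chosen with earlier results of these data known. Alternatives changed pseudocount, filter, scaling, covariates, variance model and array weights, and left out each pool.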

Additional observations from a re-analysis of the deposited data

Results flagged for a closer look

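Of 24 groups of 5 pools examined, 3 had a single pool whose gap to its nearest neighbour, as a share of the group's range, was above Dixon's critical value, which is set so that about 1 group in 20 passes it by chance. For Dzip1 it was mutant replicate 4, at 59.9, with the remaining mutant pools at 3.15 to 14.5. For Cep192 it was the same pool, at 35.0, with the remaining ones at 0.958 to 9.81. For Evf2 it was mutant replicate 1, at 58.1, with the remaining ones at 9.47 to 16.5; Dcx (340.1) and Mapk8 (57.8) were unremarkable in that pool.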

How the results depend on the processing

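The direction of all 4 genotype differences was the same under each alternative run. Dzip1 was -3.61 at pseudocount 1 and -1.14 at pseudocount 64, and Fmn2 1.61 and 0.55; both are dim in 1 genotype. Leaving out 1 pool gave -1.77 to -1.38 for Dcx, -1.81 to -1.46 for Mapk8, -2.48 to -2.06 for Dzip1 and 0.97 to 1.17 for Fmn2. The count of 241 calls over all probe sets was 55 at pseudocount 1, 375 with array weights and 38 in an ordinary unpaired test with a 2-fold limit. It ran from 72 to 259 without 1 pool, and was over 1.5 times lower on leaving out wildtype replicate 2 (133), wildtype replicate 4 (96), wildtype replicate 5 (108), mutant replicate 1 (72), mutant replicate 2 (141) and mutant replicate 3 (140). The causes were not tested. The replicate numbers did not pair the pools (correlation of deviations -0.13 to 0.07); with the replicate block the count was 139 and r of Dcx with Mapk8 0.50 (exact p = 0.408). That r was 0.55 after median centring (p = 0.0592), 0.53 around means of each genotype and sex (p = 0.0625) and 0.77 without the 2 pools farthest on the Dcx axis (p = 0.0778; all exact), each p over 0.05, and r was 0.40 to 0.73 without 1 pool. The counts of members called for sex, and for the genotype effect between sexes, were 0 in each of the 18 alternatives run. Low signal limits Dzip1 in mutant and Fmn2 in wildtype pools.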

Other observations

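Beta-actin, the main actin of the neuronal cytoskeleton, is read on this array by 3 control probe sets along its transcript, which took no part in the fit. They read 8570.5 to 10445 (3′ end), 6653 to 8002 (middle) and 6550.3 to 7407 (5′ end) in mutant pools, against 6811 to 8436, 5136 to 6356 and 4979 to 6107 in wildtype pools. The groups did not overlap at any of the 3. Of the 45037 probe sets that are not controls, 1.83% had this pattern with the mutant higher. The 3 control probe sets of Gapdh, a glycolytic enzyme, were shifted the same way. They read 6336 to 7740 (3′ end), 7300.7 to 8654 (middle) and 7566 to 8921 (5′ end) in mutant pools. The wildtype pools read 4940 to 6450, 5377 to 7301.7 and 6007 to 7659. These groups overlapped only because mutant replicate 4 lay below wildtype replicate 4. The ratios of 3′ to 5′ signal also overlapped for beta-actin (1.257 to 1.41 in mutant and 1.257 to 1.38 in wildtype pools). No test was run on these control probe sets.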
